A study of Mus musculus with 12 samples.

Results

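The multicopy gene families Pramel, Tdpoz, Usp17l and Tcstv are expressed in the mouse two-cell embryo and in two-cell-like cells, a small share of embryonic stem cells that resemble it. Members were all genes of the deposited table whose symbol begins with Pramel, Pramef, Tdpoz, Usp17l or Tcstv. This gave 32 of 17901 genes, made up of 20 Pramel, 5 Tdpoz, 5 Usp17l, 2 Tcstv and 0 Pramef genes. The RNA was from the mouse embryonic stem cell line TT2, sampled as 4 groups of 3 libraries. One genotype was wild type (WT). The other was a double knockout (DKO) of Rlf and Zfp292, a pair of zinc finger protein genes. Each was cultured on gelatin in DMEM that held Knockout Serum Replacement, a little FBS, and LIF, a condition named serum/LIF here, or for 72 h with 5 µM retinoic acid (RA) in place of LIF. RA drives stem cells out of pluripotency. The labels call the replicates biological and do not say whether they came from separate clones, so the spread below is that between these libraries.

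These genes arose by repeated local duplication, and their copies sit in tandem arrays. Pramel genes encode leucine-rich repeat proteins related to PRAME, some of which act as substrate receptors of cullin ubiquitin ligases. Tdpoz proteins combine a TRAF (MATH) domain with a BTB/POZ domain, as the ligase adaptor SPOP does, Usp17l genes encode deubiquitinases, and the small Tcstv proteins take their name from the two-cell embryo. In embryonic stem cells many of these copies are known targets of the transcription factor DUX, which also activates Zscan4 genes and the retrovirus MERVL.

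Libraries held 30869766 to 40236799 reads in genes. Rlf had 6 reads over the 3 DKO libraries of serum/LIF and 1 over those of RA, Zfp292 had 0 in all 6, and WT means were 2611 to 3611 normalized counts for Rlf and 3166 to 4909 for Zfp292. Replicate 2 of WT after RA stood apart in the repeat table, where rRNA repeats took 41.7% of its values and 4.14% to 7.28% in the other libraries. Without that library 24 members were still called lower in DKO after RA. Among pluripotency markers 6 of 6 were expressed, with summed levels of 111387 to 114499 normalized counts in WT and 99834 to 103191 in DKO before RA, against 3673 to 3821 (WT) and 5899 to 6459 (DKO) with RA. In serum/LIF 3 of the 6 were called lower in DKO and 0 higher (15.4% and 17.8% of all genes). After RA 6 of 6 were called higher in DKO (22% of all genes), with a median log2 fold change of 1.34.

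Members fell into 8 genomic clusters, a cluster being a run of members whose neighbouring starts lie within 1 Mb (build mm10, coordinates of the deposited table). The largest, on distal chromosome 4 (chr4:143394441-144408464), held 14 Pramel genes. Pramel17 and Pramel19 lay together on the same chromosome (chr4:101834969-101943183), Pramel6 and Pramel7 on chromosome 2 (chr2:87489088-87510865), and Pramel39 and Pramel44 on chromosome 5 (chr5:94302519-94626848). The Usp17l genes formed one cluster of Usp17lc and Usp17ld (chr7:103250086-103419174) and one of Usp17la, Usp17lb and Usp17le (chr7:104768049-104862667). The Tdpoz genes lay at chr3:93068823-94054885 and the Tcstv genes at chr13:119893387-120318261.

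Start-site sequences in the RefSeq promoter table (GRCm38.p6, 250 bases before to 50 after the start) matched 26 of the 32 members with 27 promoters. They are shown for copies that share an upstream region and for copies with different expression patterns. Capitals mark TATAAA, the TATA-box letters searched on the gene strand. Usp17la (chr7:104856766-104857065, plus strand) and Usp17lc (chr7:103416446-103416745, plus) lie in different clusters and had 95.3% identity over 257 aligned bases. Pramel20 (chr4:143567217-143567516, plus) and Pramel31 (chr4:144357714-144358013, plus) had 93.7% over 268. Pramel39 (chr5:94306747-94307046, minus) and Pramel7 (chr2:87492369-87492668, minus) are, respectively, the member with the largest genotype difference after RA among those tested and the one with the highest WT level in serum/LIF outside the distal chromosome 4 cluster.
Usp17la: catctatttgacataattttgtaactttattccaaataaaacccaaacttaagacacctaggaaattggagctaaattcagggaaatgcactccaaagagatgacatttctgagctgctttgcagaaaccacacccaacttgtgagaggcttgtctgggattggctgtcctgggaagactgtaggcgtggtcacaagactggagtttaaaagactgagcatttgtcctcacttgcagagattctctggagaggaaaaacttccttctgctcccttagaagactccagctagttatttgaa
Usp17lc: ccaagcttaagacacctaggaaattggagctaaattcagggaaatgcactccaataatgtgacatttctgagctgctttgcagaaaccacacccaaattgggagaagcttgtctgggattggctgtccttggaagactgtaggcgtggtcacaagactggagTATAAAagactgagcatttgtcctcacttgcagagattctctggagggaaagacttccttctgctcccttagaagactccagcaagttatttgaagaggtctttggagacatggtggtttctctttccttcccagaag
Pramel20: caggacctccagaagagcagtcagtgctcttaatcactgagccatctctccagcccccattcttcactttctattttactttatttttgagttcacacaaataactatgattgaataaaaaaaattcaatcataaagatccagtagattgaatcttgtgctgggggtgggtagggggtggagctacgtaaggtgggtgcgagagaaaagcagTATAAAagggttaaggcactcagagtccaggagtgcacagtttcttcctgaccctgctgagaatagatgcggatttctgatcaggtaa
Pramel31: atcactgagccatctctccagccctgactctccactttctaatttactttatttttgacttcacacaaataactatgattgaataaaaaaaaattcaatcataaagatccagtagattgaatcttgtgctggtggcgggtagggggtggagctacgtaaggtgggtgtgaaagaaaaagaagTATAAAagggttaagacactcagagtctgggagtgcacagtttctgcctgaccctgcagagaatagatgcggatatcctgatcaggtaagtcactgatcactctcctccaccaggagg
Pramel39: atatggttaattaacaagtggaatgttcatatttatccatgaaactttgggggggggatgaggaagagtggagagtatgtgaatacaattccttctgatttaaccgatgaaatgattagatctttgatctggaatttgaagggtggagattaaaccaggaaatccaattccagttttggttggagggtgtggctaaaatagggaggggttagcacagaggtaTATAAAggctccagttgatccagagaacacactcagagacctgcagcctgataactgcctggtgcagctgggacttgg
Pramel7: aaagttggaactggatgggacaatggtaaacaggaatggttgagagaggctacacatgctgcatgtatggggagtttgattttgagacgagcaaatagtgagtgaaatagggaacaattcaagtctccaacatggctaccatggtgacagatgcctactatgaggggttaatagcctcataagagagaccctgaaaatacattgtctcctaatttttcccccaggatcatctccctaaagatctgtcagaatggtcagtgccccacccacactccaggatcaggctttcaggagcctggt

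TATAAA occurred in 7 of the 27 member promoters (25.9%), those of Pramel20, Pramel23, Pramel31, Pramel39, Usp17lb, Usp17lc and Usp17ld, and in 8.32% of all 32851 promoters of the table. Relative to the start site its first base lay at −28 in Pramel39, −31 in Usp17lb and −38 in Pramel20. In Pramel23, Pramel31, Usp17lc and Usp17ld it lay at −67, −68, −88 and −110. The DUX motif, searched on both strands, occurred in 0 member promoters and in 11 of all promoters (0.0335%). Only exact matches to a fixed string were counted, and only within these promoter sequences. Near matches and more distant sites were not searched, so whether these genes lack DUX sites was not tested. The median number of CG pairs was 1 in member promoters and 7 in all promoters, and Pramel1 with 20 and Pramel13 with 7 had the most among members. Identity was 100% over 272 bases between the promoters of Tdpoz1 and Tdpoz9, 98.0% between Pramel14 and Pramel30, and 96.8% between Usp17lc and Usp17ld.

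Expression followed 3 patterns, which were grouped after the values had been seen. Pramel1, Pramel12 and Pramel13, at the edges of the distal chromosome 4 cluster, were transcribed in every library. Pramel6 and Pramel7 were highest in WT in serum/LIF. The other 27 members were set together, most of them low in WT in serum/LIF, higher in WT after RA and low in both DKO groups. In WT, Pramel15 and Pramel30 had fewer reads after RA than before. The summed normalized counts of all 27 members were 154 ± 32.4 (SD, n = 3) in WT against 18.3 ± 7.97 in DKO before RA. After RA they were 3092 ± 113 in WT against 118 ± 42.0 in DKO. The DKO sum was thus 8.37-fold lower in serum/LIF (469 against 48 reads, counting interval 6.21 to 11.5) and 26.2-fold lower after RA (9971 against 386 reads, 23.6 to 29.0). In these bulk samples, fewer cells that express a gene and less RNA per cell cannot be told apart. Of the 27 members, 22 had every WT library after RA above each of the other 9 libraries, as had 12.7% of all genes of the table, and the 5 others were Tdpoz1, Tdpoz9, Pramel15, Pramel23 and Pramel30, all with few reads. Because the 27 were set apart by these values, this count and the fold differences of their sum are descriptions.

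**Figure D1:**
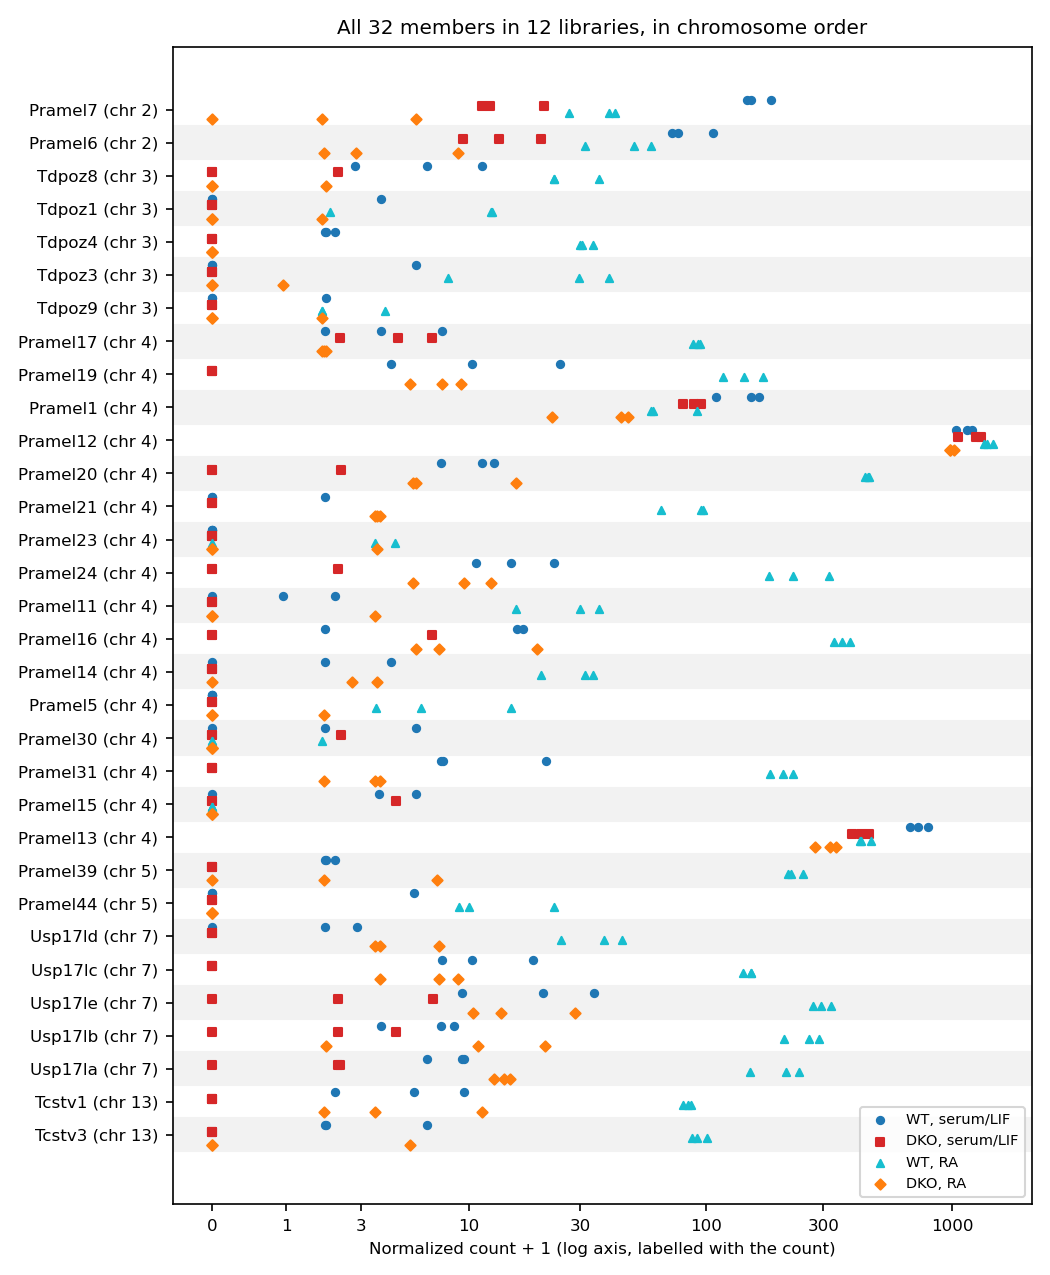
Normalized count of each of the 32 members (rows, in chromosome order) in each of the 12 libraries, on a log axis of count + 1. Symbols mark the 4 groups, with 3 libraries each. For most rows the triangles of WT after RA lie apart on the right, while Pramel6 and Pramel7 have the circles of WT in serum/LIF on the right and Pramel12 and Pramel13 have all libraries at 277 or more.

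The family sums differed in how far each group moved. In WT the Usp17l sum was 50.5 ± 10.6 normalized counts in serum/LIF and 934 ± 74.0 after RA, an 18.6-fold rise (counting interval 15.8 to 22.1). The Tcstv sum was 9.18 ± 2.05 and 177 ± 9.59, 19.2-fold higher (13.1 to 29.1), and the Tdpoz sum 12.7 ± 10.7 and 96.6 ± 14.5, 7.59-fold higher (5.43 to 10.9). Without replicate 1 of WT in serum/LIF the Tdpoz rise was 14.6-fold. The Pramel sum was 2338 ± 42.1 and 3878 ± 45.5, 1.66-fold higher (1.61 to 1.71), since most of it came from Pramel1, Pramel12 and Pramel13. These 3 genes gave 84.2% to 87.1% of the Pramel sum in WT in serum/LIF, 48.6% to 50.2% in WT after RA, 97.5% to 97.9% in DKO before RA and 94.0% to 96.7% in DKO with it. No p was computed for a family sum.

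After RA the DKO sums were lower than WT by 45.3-fold for Tdpoz (313 against 7 reads, 21.7 to 113), 23.96-fold for Tcstv (568 against 24 reads, 15.9 to 37.7), 16.96-fold for Usp17l (3016 against 180 reads, 14.6 to 19.8) and 2.77-fold for Pramel (2.67 to 2.86). Without Pramel1, Pramel6, Pramel7, Pramel12 and Pramel13, the Pramel sum was 35.1-fold lower (6074 against 175 reads, 30.2 to 41.1). These genes were left out after the values had been seen, so the larger fold difference is a description that follows in part from that choice. In serum/LIF the differences were 16.7-fold for Tdpoz (39 against 2 reads, 4.33 to 143), 7.29-fold for Usp17l (153 against 18 reads, 4.46 to 12.6) and 1.33-fold for Pramel (1.28 to 1.38). The Tdpoz difference in serum/LIF was 8.84-fold without replicate 1 of WT in serum/LIF, and 67.9-fold after RA without replicate 3 of DKO after RA. The Usp17l difference in serum/LIF was 14.96-fold without replicate 1 of DKO in serum/LIF. Tcstv had 28 reads in WT and 0 in DKO, at least 8.0-fold lower with 3 reads over the group as the floor. Libraries of WT and DKO did not overlap in any of the 4 family sums in either condition.

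**Figure D2:**
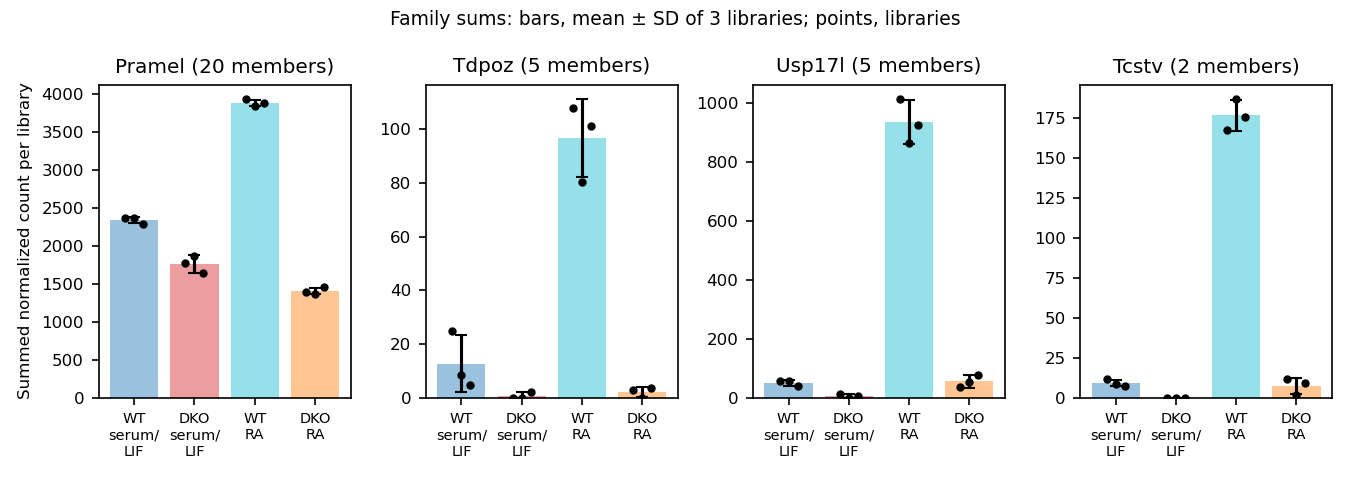
Summed normalized count of each family (panels) by group. Bars give the mean and SD of 3 libraries, points the libraries. WT after RA is the highest group in every panel, and the Pramel panel is the one with both DKO means at 1402 or more.

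In DKO, RA raised 12 of the 19 tested members of the third pattern, where 40.2% of all genes rose. The 19 were set together from these values, so the count is a description. The Usp17l sum of DKO was 6.84 ± 6.88 before RA and 54.8 ± 21.05 after RA (8.01-fold, 4.93 to 13.8, or 16.2-fold without replicate 1 of DKO in serum/LIF), and Tcstv went from 0 reads to 7.39 ± 4.96 (24 reads, at least 6.41-fold higher). Tdpoz genes had 2 reads before RA and 7 with it. The DKO level after RA was close to the WT level in serum/LIF for Usp17l and Tcstv, and the libraries of these 2 groups overlapped.

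In limma tests of single genes, 24 members passed the filter of 10 or more normalized counts in at least 3 libraries. Of these, 8 reached 10 only in libraries of WT after RA (Tdpoz4, Pramel11, Pramel14, Pramel17, Pramel21, Pramel39, Usp17ld and Tcstv3) and so had to differ there. Tdpoz8, Pramel31 and Tcstv1 (4 libraries at 10 or more in all) and Pramel19, Usp17lb and Usp17lc (5) also needed WT after RA to reach 3 libraries. The filter thus favoured a difference there for these too. The tests were limma fits of log2(normalized count + 1) over 15750 genes, with Benjamini-Hochberg adjustment over all of them and a call at an adjusted p under 0.05, and each log2 fold change below is on that scale with its SE.

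After RA, 24 of the 24 tested members were lower in DKO, where 20.7% of all tested genes were lower, and 0 were higher (22% of all genes). None reached an unadjusted p under 0.05 in the higher direction (count 0), and edgeR and DESeq2 gave 0 higher and 24 lower. The median log2 fold change was −4.15 over the 24 members and 0.01 over all genes. Among the 16 members that also reached the filter value outside WT after RA, 16 were lower, with a median of −4.11. Tdpoz8, Pramel31, Tcstv1, Pramel19, Usp17lb and Usp17lc are among these and still needed WT after RA to pass. This median is thus not free of selection by the filter. In 24 of 24 members every DKO library lay below every WT library, a pattern that 26.5% of all tested genes had.

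In serum/LIF, 13 of 24 members were lower in DKO (15.4% of all genes) and 0 were higher (17.8% of all genes). At an unadjusted p under 0.05, 17 were lower and 0 higher in limma, and edgeR and DESeq2 each called 15 lower and 0 higher. The lower ones were 8 Pramel, 1 Tdpoz, 3 Usp17l and 1 Tcstv genes, and of the 11 not called, 9 had 2 to 20 reads in WT and the others were Pramel1 and Pramel12. The median was −2.03 over the 24 members and −0.01 over all genes. DKO libraries lay below WT in 16 members (21.9% of all genes).

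RA in WT raised 20 of the 24 members (41.4% of all genes rose) and lowered 3 (39.2%), with a median of 3.85 against 0.04 over all genes. Of the 16 members that also reached the filter value outside WT after RA, 12 rose and 3 fell. Among these 12, Tdpoz8, Pramel31, Tcstv1, Pramel19, Usp17lb and Usp17lc still needed WT after RA to pass, so the filter favoured their rise. Pramel12, Pramel16, Pramel20, Pramel24, Usp17la and Usp17le rose and did not need it. In DKO, 12 of the 24 members rose (40.2%) and 5 fell (38.2%), with a median of 1.66 against 0.04. The 3 that fell in WT were Pramel1, Pramel7 and Pramel13, and in DKO Pramel6 and Pramel12 fell as well. These comparisons share groups of libraries, so their counts are not independent of each other. In the authors' deposited table, which lists adjusted p-values for 4 comparisons, 25 members were lower and 0 higher in DKO after RA, and 14 lower and 0 higher in serum/LIF. The same deposited table of the authors has 21 higher and 4 lower with RA in WT, and 14 higher and 5 lower in DKO.

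**Figure D3:**
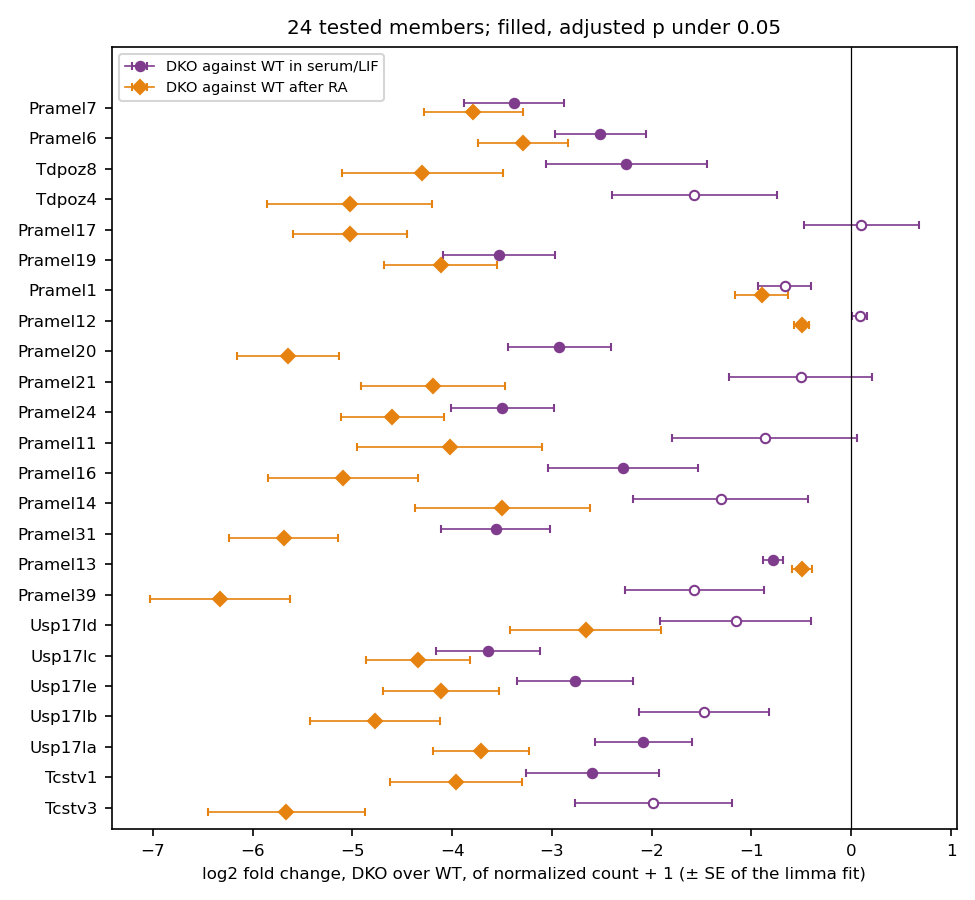
Log2 fold change of DKO over WT for the 24 tested members (rows, in chromosome order), with the SE of the limma fit, in serum/LIF (circles) and after RA (diamonds). Filled symbols have an adjusted p under 0.05. Every diamond is filled and left of 0, from −6.33 for Pramel39 to −0.49 for Pramel13, and the circles lie between −3.64 and 0.10.

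Within the distal chromosome 4 cluster, Pramel1 and Pramel12 at one edge and Pramel13 at the other framed 11 copies that were nearly silent outside WT after RA. Before RA those 11 copies together had 183 reads in WT against 16 in DKO. After RA they had 4540 against 135, 34.0-fold lower in DKO (counting interval 28.7 to 40.7). The edge genes were set apart after the values had been seen, so this fold difference is a description. Pramel20 had the highest WT level after RA among the 11 copies, with 458, 442 and 456 normalized counts in the 3 libraries. In DKO after RA its libraries held 5.69, 5.51 and 16.1, in WT in serum/LIF 11.5, 12.9 and 7.48, and in DKO before RA 0, 2.35 and 0. WT after RA was thus far above the other 3 groups, and DKO after RA overlapped WT in serum/LIF. Its log2 fold change was −5.64 ± 0.51 after RA (adjusted p = 3.75e-09) and −2.93 ± 0.51 in serum/LIF (adjusted p = 8.61e-05).

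Pramel16 had 358, 383 and 330 normalized counts in WT after RA and 5.69, 7.35 and 19.7 in DKO after RA. In serum/LIF it had 16.2, 17.2 and 1.87 in WT and 0, 0 and 6.76 in DKO, so these groups overlapped. It fell in DKO after RA (−5.09 ± 0.75, adjusted p = 1.80e-05). The lower level in serum/LIF (−2.29 ± 0.75, adjusted p = 0.0246) was not called with DESeq2 (adjusted p = 0.0859) or without replicate 1 or 2 of either genotype in serum/LIF, with adjusted p from 0.000579 to 0.143 over 20 alternatives. Its rise with RA in DKO (2.41 ± 0.75, adjusted p = 0.00693) was lost with DESeq2 (adjusted p = 0.0538). Leaving out replicate 1 or 2 of DKO in serum/LIF lost it too (adjusted p = 0.0564 and 0.0563).

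Pramel31, whose start-site sequence is close to that of Pramel20, had 182, 225 and 205 normalized counts in WT after RA and 3.79, 1.84 and 3.58 in DKO. In serum/LIF its WT libraries held 7.64, 21.5 and 7.48 and its DKO libraries 0 reads. Pramel21 went from 0, 0 and 1.87 in WT in serum/LIF to 97.3, 65.2 and 95.1 after RA, a 132-fold rise that rests on 2 reads (279 against 2, counting interval 36.2 to 1095). In DKO it had 0 reads in serum/LIF and 3.79, 3.67 and 3.58 after RA. Both were lower in DKO after RA (Pramel31 −5.69 ± 0.55, adjusted p = 9.19e-09, and Pramel21 −4.19 ± 0.72, adjusted p = 4.46e-05).

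Other copies of the cluster differed mainly in level. In WT after RA, Pramel24 averaged 241 ± 69.5 normalized counts, Pramel14 28.8 ± 7.15 and Pramel11 27.4 ± 10.2, and DKO means were 9.17, 2.12 and 1.19. Replicate 2 of WT after RA, the library with the high rRNA share, held the lowest Pramel24 value (181 against 317 and 226). Pramel5 (29 reads in all 12 libraries), Pramel15 (14), Pramel23 (13) and Pramel30 (12) did not pass the filter. Pramel15 had its reads in serum/LIF, 10 in WT and 4 in DKO, and 0 after RA, and Pramel30 had 8 and 2 in serum/LIF and 2 and 0 after RA, so neither had the RA pattern of its neighbours at this depth.

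**Figure D4:**
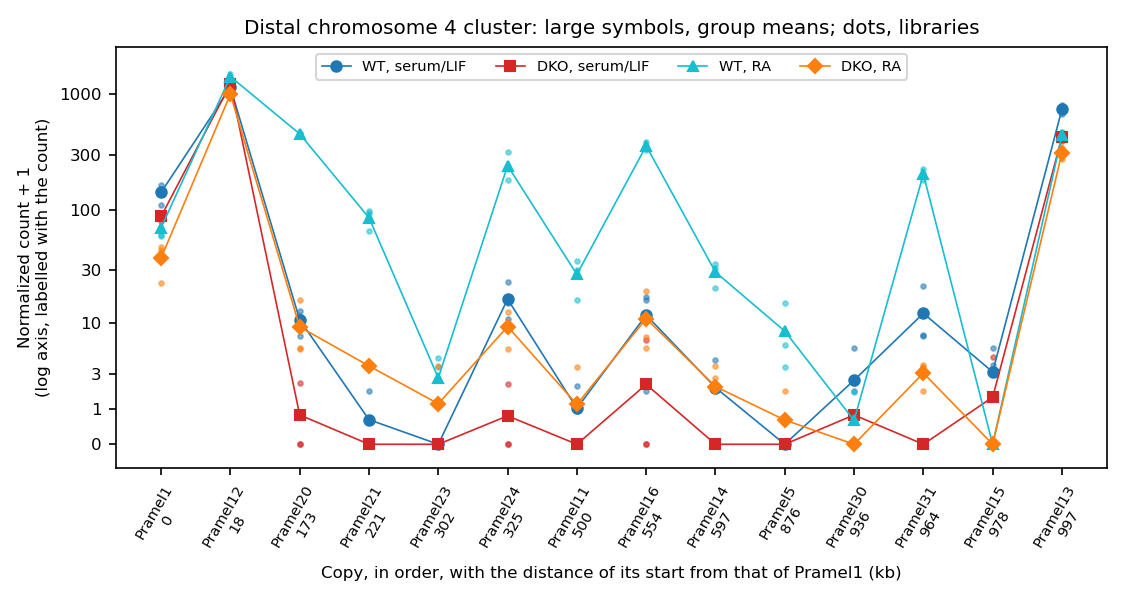
Normalized count of the 14 Pramel genes of the distal chromosome 4 cluster (log axis of count + 1), in order along the chromosome, with the distance of each start from that of Pramel1 in kb. Large symbols give the means of the 4 groups, dots the libraries. The 4 means lie closer together at both edges, and that of WT after RA stands above the others from Pramel20 to Pramel5 and at Pramel31.

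Pramel12 was the most abundant member. Its libraries held 1155, 1202 and 1041 normalized counts in WT against 1245, 1311 and 1057 in DKO before RA, with overlapping groups (0.09 ± 0.07, adjusted p = 0.409). After RA they held 1349, 1389 and 1465 in WT and 978, 1019 and 976 in DKO, with DKO 1.41-fold lower (−0.50 ± 0.07, adjusted p = 7.02e-06). RA raised Pramel12 in WT (0.31 ± 0.07, adjusted p = 0.000558) and lowered it in DKO (−0.27 ± 0.07, adjusted p = 0.00175).

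Pramel13, also named Pramef12 and studied in spermatogonial stem cells, had 729, 676 and 801 normalized counts in WT before RA, against 392, 426 and 460 in DKO. After RA it had 468, 425 and 422 in WT and 319, 277 and 339 in DKO. Every DKO library was below every WT library in each condition (−0.79 ± 0.10, adjusted p = 1.12e-06 in serum/LIF and −0.49 ± 0.10, adjusted p = 0.000307 after RA). Pramel1 had 164, 110 and 152 in WT and 95.2, 89.2 and 80.0 in DKO before RA, and 91.9, 60.2 and 59.2 against 44.6, 23.0 and 47.4 after RA. The fall of Pramel1 in DKO was called after RA (−0.90 ± 0.26, adjusted p = 0.00812) and not in serum/LIF (−0.67 ± 0.26, adjusted p = 0.0559). In serum/LIF it was called with edgeR (adjusted p = 0.0303 and 0.0298), DESeq2 (0.0237), a pseudocount of 5 (0.0391) and the replicate block (0.0381), with adjusted p from 0.0237 to 0.18 over 20 alternatives. The call after RA was lost without replicate 1 of WT or replicate 2 of DKO after RA, with adjusted p from 0.00454 to 0.0782 over 20 alternatives.

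Pramel7, which is known to promote the breakdown of the DNA methylation factor UHRF1 in pluripotent cells, and its neighbour Pramel6 ran against the RA pattern of the other clusters. Pramel7 had 147, 184 and 152 normalized counts in WT before RA, against 11.5, 21.1 and 12.4 in DKO. After RA it had 39.6, 42.1 and 26.9 in WT and 5.69, 0 and 1.79 in DKO. The 4 groups did not overlap, and DKO was 10.7-fold lower in serum/LIF (counting interval 7.73 to 15.3) and 14.7-fold lower after RA (7.21 to 34.8). The log2 fold changes were −3.38 ± 0.50 (adjusted p = 9.27e-06) and −3.79 ± 0.50 (adjusted p = 1.36e-06).

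Pramel6 had 76.4, 106 and 72.0 normalized counts in WT and 20.6, 9.39 and 13.5 in DKO in serum/LIF (−2.51 ± 0.45, adjusted p = 0.000112). After RA it had 50.4, 59.2 and 31.4 in WT and 2.84, 1.84 and 8.95 in DKO (−3.28 ± 0.45, adjusted p = 2.38e-06). RA lowered Pramel7 in both genotypes (−2.14 ± 0.50 in WT and −2.54 ± 0.50 in DKO) and Pramel6 in DKO (−1.64 ± 0.45, adjusted p = 0.00213). For Pramel6 in WT the change was −0.87 ± 0.45 (adjusted p = 0.0815), a fall that edgeR (adjusted p = 0.0291 and 0.0297), DESeq2 (0.0215) and a pseudocount of 5 (0.0241) called, with adjusted p from 0.0215 to 0.275 over 20 alternatives. Uhrf1 itself was slightly lower in DKO in serum/LIF (−0.16 ± 0.03, adjusted p = 0.000457) and at 0.04 ± 0.03 after RA (adjusted p = 0.379).

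The pair on the middle of chromosome 4 differed from each other in serum/LIF. Pramel17 had 3.82, 7.52 and 1.87 normalized counts in WT and 2.29, 4.69 and 6.76 in DKO in serum/LIF, so the groups overlapped (13 against 12 reads). After RA it had 88.3, 92.3 and 94.2 in WT and 1.90, 1.84 and 1.79 in DKO, 49.8-fold lower (295 against 6 reads, counting interval 22.6 to 137). Its log2 fold change was 0.10 ± 0.57 in serum/LIF (adjusted p = 0.917) and −5.03 ± 0.57 after RA (adjusted p = 1.46e-07). Pramel19 had 41 reads in WT against 0 in DKO before RA, at least 11.7-fold lower, and averaged 143 ± 26.2 and 7.38 ± 1.92 after RA.

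On chromosome 5, Pramel39 had the largest genotype difference of all tested members after RA (−6.33 ± 0.70, adjusted p = 9.01e-08). Its WT libraries held 222, 248 and 214 normalized counts after RA and its DKO libraries 0, 1.84 and 7.16. In serum/LIF it had 1.91, 2.15 and 1.87 in WT and 0 reads in DKO. Pramel44 next to it had 52 reads in all and did not pass the filter, with 46 reads in WT after RA and 0 in DKO after RA, at least 15.5-fold lower.

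The Usp17l genes, members of the USP17 group of deubiquitinases, were highest in WT after RA and lowest in DKO in serum/LIF. The mean of WT in serum/LIF was above that of DKO after RA for Usp17le and Usp17lc and below it for Usp17la, Usp17lb and Usp17ld. Usp17le had 293, 273 and 321 normalized counts in WT after RA, 10.4, 13.8 and 28.6 in DKO after RA, 21.01, 34.4 and 9.35 in WT in serum/LIF and 6.88, 0 and 2.25 in DKO in serum/LIF. Usp17lb had 289, 263 and 208 in WT after RA and 1.90, 11.02 and 21.5 in DKO, and in serum/LIF 3.82, 8.60 and 7.48 against 4.59, 0 and 2.25. WT after RA was far above the other groups for both genes, and only Usp17le was separated by genotype in serum/LIF.

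Usp17la had 240, 151 and 211 normalized counts in WT after RA, with the lowest value in replicate 2, and 15.2, 12.9 and 14.3 in DKO. In serum/LIF it had 9.55, 6.45 and 9.35 in WT and 2.29, 0 and 2.25 in DKO. Usp17lc had 152, 153 and 141 in WT after RA and 3.79, 7.35 and 8.95 in DKO, and 19.1, 7.52 and 10.3 against 0 reads in serum/LIF. Usp17ld, its close neighbour, had 37.8, 25.1 and 44.9 in WT after RA and 3.79, 7.35 and 3.58 in DKO, and 2.86, 0 and 1.87 against 0 reads in serum/LIF.

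All 5 Usp17l genes fell in DKO after RA, from −2.66 ± 0.76 for Usp17ld (adjusted p = 0.0063) to −4.77 ± 0.65 for Usp17lb (adjusted p = 2.61e-06). In serum/LIF Usp17lc (−3.64 ± 0.52, adjusted p = 6.05e-06), Usp17le (−2.77 ± 0.58) and Usp17la (−2.08 ± 0.48) fell. Usp17lb (−1.48 ± 0.65, adjusted p = 0.087) and Usp17ld (−1.16 ± 0.76, adjusted p = 0.256) were not called there, although Usp17lb was called without replicate 1 of DKO in serum/LIF or after RA, with adjusted p from 0.0324 to 0.386 over 20 alternatives. RA raised all 5 in WT and in DKO, by 3.58 to 5.11 in WT and by 1.81 to 2.88 in DKO. The rise of Usp17lb in DKO was lost without replicate 2 of DKO in serum/LIF and without replicate 2 or 3 of DKO after RA, with adjusted p from 0.00052 to 0.13 over 20 alternatives.

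Of the 5 Tdpoz genes 2 passed the filter, and the family had the lowest sum in both genotypes after RA. Tdpoz4 had 30.6, 30.1 and 34.1 normalized counts in WT after RA and 0 reads in DKO, at least 34.4-fold lower, and 1.91, 2.15 and 1.87 against 0 reads in serum/LIF. Tdpoz8 had 23.4, 36.1 and 23.3 in WT after RA and 1.90, 0 and 0 in DKO, and 11.5, 6.45 and 2.81 against 0, 0 and 2.25 in serum/LIF. Both fell in DKO after RA (−5.03 ± 0.83, adjusted p = 2.67e-05, and −4.30 ± 0.80, adjusted p = 0.000127). The lower Tdpoz8 level in serum/LIF (−2.25 ± 0.80, adjusted p = 0.0334) rested on 21 against 2 reads and was lost without replicate 1 or 2 of either genotype in serum/LIF (adjusted p from 0.0147 to 0.142 over 19 alternatives). The rise of Tdpoz8 with RA in WT (1.99 ± 0.80, adjusted p = 0.0271) was lost with a pseudocount of 0.5. It was also lost without replicate 2 or 3 of WT in serum/LIF, or without any single replicate of WT after RA (adjusted p from 0.00114 to 0.117 over 19 alternatives).

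Tdpoz3, Tdpoz1 and Tdpoz9 did not pass the filter. Tdpoz3 (92 reads in all) had 39.6, 8.03 and 29.6 normalized counts in WT after RA, and Tdpoz1 (36 reads) had 12.6, 2.01 and 12.6, both lowest in replicate 2. In DKO after RA they had 0.948, 0 and 0, and 0, 0 and 1.79. In serum/LIF replicate 1 of WT held all their reads, at 5.73 and 3.82, and DKO had 0. Tdpoz9 (12 reads) had 1.80, 4.01 and 1.79 in WT after RA, 0, 0 and 1.79 in DKO after RA, 1.91, 0 and 0 in WT in serum/LIF and 0 reads in DKO in serum/LIF.

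Tcstv1 and Tcstv3, which have been linked to telomere length in embryonic stem cells, were close to each other in level. Tcstv1 had 80.2, 86.3 and 84.3 normalized counts in WT after RA and 11.4, 1.84 and 3.58 in DKO, and 9.55, 2.15 and 5.61 against 0 reads in serum/LIF. Tcstv3 had 87.4, 100 and 91.5 in WT after RA and 0, 0 and 5.37 in DKO, and 1.91, 6.45 and 1.87 against 0 reads in serum/LIF. Both fell in DKO after RA (−3.96 ± 0.66, adjusted p = 3.46e-05, and −5.66 ± 0.79, adjusted p = 2.78e-06). In serum/LIF Tcstv1 fell (−2.59 ± 0.66, adjusted p = 0.0038) and Tcstv3 was at −1.99 ± 0.79 (adjusted p = 0.0552), which was called with edgeR (adjusted p = 0.0394 and 0.039) and DESeq2 (0.0342), with adjusted p from 0.0313 to 0.211 over 20 alternatives.

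Whether the genotype difference itself changed with RA was tested by the interaction, the log2 fold change after RA minus that in serum/LIF. It was negative and called for 9 of 24 members (16% of all genes) and positive and called for 0 (14.8% of all genes). Of the 9, 5 reached the filter value only in WT after RA, and among the 16 members that also reached it elsewhere 4 were called. Of these 4, Pramel31 and Usp17lb still needed WT after RA to pass, and Pramel12 and Pramel20 did not. In the positive direction 0 members reached an unadjusted p under 0.05, and edgeR and DESeq2 called 0. Pramel17 (−5.13 ± 0.81, adjusted p = 3.15e-05) and Pramel12 (−0.58 ± 0.10, adjusted p = 0.000141) were called by limma, edgeR and DESeq2 in 21 of 21 fits, the main one and 20 alternatives. For members with 0 or few reads in DKO in serum/LIF the value depends on the pseudocount, and the number called ran from 2 with edgeR and 3 with DESeq2 to 20 with a pseudocount of 5. In DKO in serum/LIF 17 of the 32 members had 0 reads, so the size of the serum/LIF difference has no upper limit there.

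Levels per kb of transcript allow genes to be ordered. Transcripts were taken from GENCODE M21 for 30 members. In WT after RA the order of normalized count per kb was Pramel12 (361 ± 15.2), Pramel20 (216 ± 4.34), Pramel16 (212 ± 15.8), Usp17lb (180 ± 29.4), Pramel13 (178 ± 10.5), Usp17le (157 ± 12.9), Pramel39 (123 ± 9.53), Tcstv3 (119 ± 8.51) and Pramel24 (115 ± 33.0). Neighbours in this order differed by less than the sum of their SDs, except Pramel12 and Pramel20, and Usp17le and Pramel39. In WT in serum/LIF Pramel13 (299 ± 25.6) and Pramel12 (291 ± 21.4) led, then Pramel7 (86.6 ± 10.6) and Pramel1 (50.9 ± 10.3), and the other members with a length were at or below 11.4 per kb.

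Reads from near-identical copies can be split, dropped or given to the wrong copy, and how the authors treated reads with several matches is not stated in the labels or file headers. As a measure of this, each GENCODE transcript was cut into all windows of 150 bases, the read length, and the share found in the transcripts of no other gene was counted. It was 100% for 11 of 30 members, among them Pramel1, Pramel7, Pramel12, Pramel13, Pramel24, Tdpoz8, Tcstv1 and Tcstv3. For Pramel39 it was 9.01%, for Tdpoz9 20.7%, for Usp17lc 57.2%, for Pramel30 59.7%, for Pramel14 59.9% and for Usp17ld 63.9%. The single-copy values of these members are uncertain. Summing a family covers reads shared between its listed members, as for Usp17lc and Usp17ld or Pramel14 and Pramel30. It does not cover reads shared with genes of other names, and the closest transcripts of Pramel39 (73.3% of windows shared with Gm3147), Tdpoz9 (79.3% with Gm9117), Pramel19 (34.6% with Gm12800), Tdpoz3 (33.4% with Gm4982) and Pramel20 (32.5% with Gm13040) have such names. Of the 19 tested members of the third pattern, 4 had only unique windows (Pramel24, Tdpoz8, Tcstv1 and Tcstv3), and these were lower in DKO after RA by 26.5-fold, 44.5-fold, 15.1-fold and 50.4-fold. The third pattern was set from these values, and Tdpoz8, Tcstv1 and Tcstv3 needed WT after RA to pass the filter, while Pramel24 did not. These fold differences are thus a description and no test of the effect of shared reads.

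**Figure D5:**
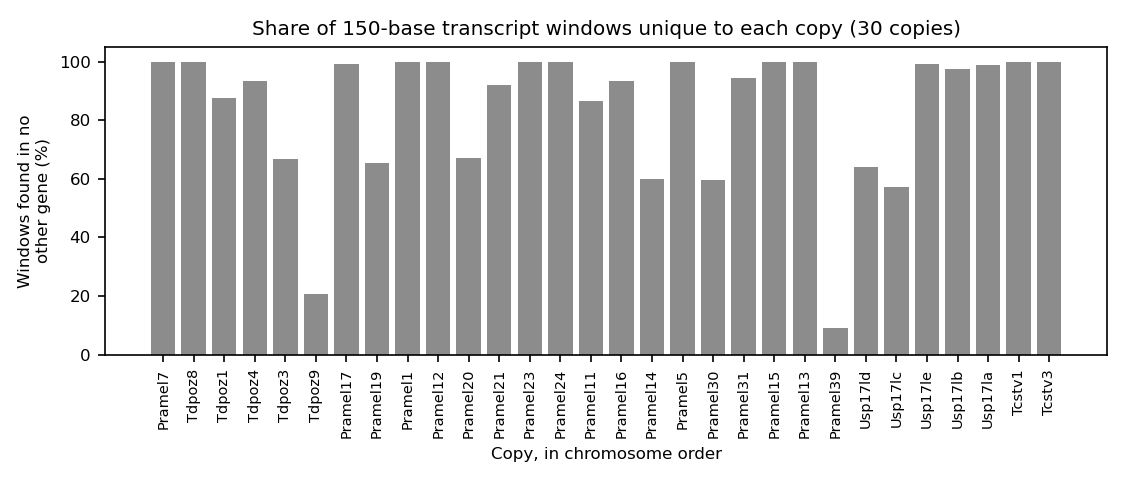
Share of the 150-base windows of each member's transcript that occur in the transcripts of no other gene, in percent, for the 30 members with a matched transcript, in chromosome order. Bars of 100% stand for 11 members, and Pramel39 and Tdpoz9 are the 2 below 50%.

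Genes of other names inside the clusters were looked at by position alone. All 6 such genes of the Tcstv cluster in the table (Gm21761, B020031M17Rik, Gm20767, Gm21818, AF067061 and BC147527) were lower in DKO in both conditions and higher with RA in WT. Of all tested genes, 15.4% were lower in DKO in serum/LIF, 20.7% were lower in DKO after RA and 41.4% rose with RA in WT. Gm20767, the most abundant, had 467 ± 65.3 normalized counts in WT and 16.8 ± 4.23 in DKO after RA. AA792892 in the chromosome 5 cluster was lower in DKO in both conditions too (−5.92 ± 0.73 after RA, adjusted p = 4.54e-07). B020031M17Rik, AF067061, BC147527 and AA792892 averaged 5.94 normalized counts or less in every group but WT after RA. These genes thus passed the filter through WT after RA and had to differ there. C130073F10Rik in the middle chromosome 4 cluster was lower in DKO after RA (−2.15 ± 0.67, adjusted p = 0.0121) and was not called in serum/LIF or with RA in WT. Of 3 tested genes in the Tdpoz cluster, Tchh was lower in DKO after RA (−0.74 ± 0.12), and S100a10 (0.48 ± 0.06) and S100a11 (0.40 ± 0.07) were higher.

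Other genes and repeats of the two-cell programme were described from a list of 52 genes, of which 25 were in the table and 23 were tested. After RA 20 were lower in DKO and 1 higher (20.7% and 22% of all genes). In serum/LIF 16 were lower and 1 higher (15.4% and 17.8%). With RA 20 rose and 3 fell in WT (41.4% and 39.2%), and 13 rose and 3 fell in DKO (40.2% and 38.2%). The list includes 3 of the genes inside the Tcstv cluster, of which AF067061 and BC147527 passed the filter through WT after RA. MERVL-int, the internal part of the retrovirus, had 1819 ± 188 normalized counts in WT against 1137 ± 50.9 in DKO before RA. With RA it had 13281 ± 205 against 1369 ± 63.6, the same order of group means as the sum of the 27 members. Its promoter repeat MT2_Mm had 623 ± 20.3 in WT and 452 ± 12.3 in DKO before RA, and 1991 ± 157 and 406 ± 23.2 with it, so here DKO after RA was lowest.

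Of 29 tested regulators of this programme, 8 were higher and 5 lower in DKO after RA (22% and 20.7% of all genes), and 3 higher and 4 lower in serum/LIF (17.8% and 15.4%). Dppa2, which with Dppa4 acts upstream of Dux, rose in DKO after RA (0.86 ± 0.06) and Dppa4 fell (−0.52 ± 0.05). Chaf1a, which encodes a subunit of the histone chaperone CAF-1, fell (−0.68 ± 0.04). Dux itself is not analysed here.

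Several members are also expressed in germ cells, and 6 of 10 germ cell markers were in the table. Their summed level was 1871 to 2026 normalized counts in WT against 3073 to 3337 in DKO before RA, then 1280 to 1367 against 2785 to 2867, so it was higher in DKO where the members were lower. Of these 6 markers, 3 were called higher and 1 lower in DKO in serum/LIF, and 4 higher and 0 lower after RA. Endoderm markers (4 of 4 in the table) were at 44.9 to 78.3 and 72.1 to 82.2 in serum/LIF and at 1113 to 1257 and 1132 to 1269 after RA. Although these sums overlapped, 1 of the 4 was called higher in DKO in serum/LIF and 2 after RA, with 0 lower. In serum/LIF the fibroblast sum (7 of 7 markers) was 4390 to 4542 in WT and 10287 to 11106 in DKO, with 5 of 7 markers higher in DKO, and the neural sum (4 of 4) was 10131 to 10789 and 13069 to 13920, with 3 of 4 higher. After RA the fibroblast sum was 34846 to 37319 in WT and 41487 to 44154 in DKO. Of its 7 markers, 2 were called higher in DKO and 0 lower, with a median log2 fold change of −0.26. The neural sum was 10500.0 to 11064 and 10910.3 to 11099 (3 of 4 markers lower in DKO and 1 higher). The trophoblast sum (4 of 6) was 1681 to 1736 and 2192 to 2355 (1 of 4 markers called higher in DKO and 0 lower). The part of these cell types in the members' levels was not tested.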

How the data were processed

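RNA-seq was made from 12 libraries of TT2 cells, 3 for each genotype and condition. Reads were trimmed with Trim Galore 0.6.10, aligned with STAR 2.7.11b to mm10, counted with featureCounts (Subread 2.0.6) and passed to DESeq2 1.44.0, per the submitters' processing notes. Each deposited library value is a normalized signal, the reads of a gene divided by a size factor, in one table of genes and one of repeats. The authors also deposited a log2 fold change and an adjusted p-value per comparison, which were used only where named. Dividing by the value of 1 read gave whole reads for 100% of the values within 0.01.

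Genes with 10 or more normalized counts in at least 3 libraries (15750, with 2151 below) were tested with limma 3.58.1 (R 4.3.3; trend and robust options) on log2(normalized count + 1), in 1 fit of the 12 libraries with a mean per group, and Benjamini-Hochberg adjustment over all of them. Adding 1 understates the change of low genes. The script was tested on simulated data. Alternatives used edgeR 4.0.16 and DESeq2 1.42.0 on the recovered reads. Fold differences without an SE are ratios of reads over size factors, with 95% Poisson intervals or, against 0 reads, a floor of 3 reads over the group. These cover counting error only. Of the member values of 1 to 20 reads, 89.0% were even (81.7% in other genes, 50.8% in repeats), which makes the intervals too narrow if reads were counted in pairs. The cause was not tested.

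Values in every library are given for the 5 highest members of each family and, in each comparison, for the 3 called members that changed most in each direction, if the mean of the higher group reached 20. The members and the lists were chosen with earlier results of these data known. Replicate numbers were not used as pairs.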

Additional observations from a re-analysis of the deposited data

Results flagged for a closer look

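For 9 members the genotype difference was not the same in the 2 conditions, by the limma interaction test over all genes (log2 fold change of DKO over WT after RA minus that in serum/LIF). The value was −5.13 for Pramel17, −4.75 for Pramel39, −3.68 for Pramel21, −3.68 for Tcstv3, −3.45 for Tdpoz4, −3.30 for Usp17lb, −2.72 for Pramel20, −2.13 for Pramel31 and −0.58 for Pramel12. In this fit all 9 differences were more negative after RA, and the value for Pramel31 changed sign with edgeR. Over all tested members edgeR called 2 interactions and DESeq2 3. Pramel17 and Pramel12 were called in each of 21 fits, Usp17lb in 19, Pramel21 and Pramel39 in 18, Pramel20 and Tcstv3 in 17, Tdpoz4 in 13 and Pramel31 in 10. Of the 9, 5 (Pramel17, Pramel39, Pramel21, Tcstv3 and Tdpoz4) had 10 or more normalized counts only in WT after RA. Among the 16 members with such a value in another group, 4 were called. Of these, Pramel31 and Usp17lb still needed WT after RA to pass the low-value filter, and Pramel12 and Pramel20 did not. Of the 9, 5 had 0 reads in DKO in serum/LIF, and Pramel12, Pramel17, Pramel20 and Usp17lb had reads in every group.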

How the results depend on the processing

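The counts of members lower in DKO after RA, lower in DKO in serum/LIF, and higher or lower with RA stayed within 1.5 times the values of the report in every alternative run. The count of members with a called interaction did not. It was 9, and became 5 with a pseudocount of 0.5, 20 with 5, 2 with edgeR under TMM, 2 with edgeR under the deposited size factors and 3 with DESeq2. The interaction changed sign for Usp17lc (0.13 with a pseudocount of 0.5, 2.23 and 2.23 with edgeR, 1.41 with DESeq2), Usp17ld (0.98, 0.98 and 0.0697), Tcstv1 (1.71, 1.71 and 0.88), Pramel31 (0.61 and 0.61 with edgeR) and Pramel7 (0.57 with a pseudocount of 5). The cause was not tested. With the replicate number as a block, 8 interactions and 14 members lower in serum/LIF were called, against 9 and 13, and the block moved no count by over 1.5 times. Deviations from group means correlated at 0.0184 to 0.137 between same-numbered libraries of WT and DKO in the same condition. Between same-numbered libraries of the same genotype before and after RA they correlated at −0.137 to −0.00178. The numbers were not taken as pairs, and the counts with the block are those just given. Leaving out 1 library at a time gave 11 to 16 members lower in serum/LIF, 23 to 24 lower after RA, 19 to 20 higher and 3 to 4 lower with RA in WT, 10 to 14 higher and 5 lower with RA in DKO, and 7 to 12 interactions. The log2 fold change then ran from −0.29 to 0.50 for Pramel17 in serum/LIF, from −0.57 to 0.51 for Tdpoz8 with RA in DKO, and the interaction from −0.42 to 0.0911 for Pramel1 and from −1.07 to 0.30 for Pramel7. With the members that pass the filter only, the log2 ratio of the Tdpoz sum (also the chromosome 3 cluster) with RA in DKO was −0.25 against 1.51 for all members, and that of the chromosome 5 cluster with RA in WT was 6.85 against 5.98. The family ratios of the report that moved by over 1.5 times without 1 library are given there with that value. Leaving out 1 library, the chromosome 5 sum ran from −8.04 to −5.75 (DKO over WT after RA) and from 5.65 to 6.90 (RA in WT). Clusters numbered 9, 8 and 7 with gaps of 0.5, 1 and 2 Mb. Among values of single members under the alternatives, 1870 kept direction and call, 44 gained a call, 56 lost one and 20 changed sign. Members with under about 10 reads in a group are limited by depth.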
